A study of Mus musculus with 48 samples.

Results

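The 6 genes followed across the series mark resident microglia by a surface, Golgi or secreted product: Tmem119, Fcrls, Slc2a5, Golm1, Sparc and Olfml3. They were taken by symbol from the count table, where they are 6 of 35870 genes, and all 6 passed the filter on low counts in both tissues. Microglia sorted from brain by Cd11b and Cd45, and spinal cord taken whole, were each sequenced in 3 groups of 8 libraries, all from wild-type male mice of strain C57BL/6. In old repopulated mice (23 months), Csf1r, the survival receptor of microglia, was inhibited for 5 days, and 7 days of recovery followed. Old mice (23 months) and young mice (3 months) received vehicle. The design asks how age changes microglia and whether cells that grow back in an old animal differ from those they replaced. The sorted cells came from brain and not from cord, so the tissues also differ in region.

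Homeostatic microglia are the surveying cells of the undisturbed brain, and their shared gene programme depends on TGF-beta signals from the tissue and on transcription factors such as PU.1 and SMAD proteins. The programme is known to decline when microglia respond to injury, demyelination or neurodegeneration. Tmem119 encodes a transmembrane protein used as a marker that separates microglia from other macrophages. Fcrls encodes a scavenger receptor of the Fc receptor-like family, and Slc2a5 encodes the fructose transporter GLUT5. Golm1 encodes a type II membrane protein of the Golgi, Sparc a secreted matricellular glycoprotein that binds collagen, and Olfml3 a secreted glycoprotein with an olfactomedin domain.

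In GRCm38, Tmem119 lies at chr5:113793729-113800516, Fcrls at chr3:87250758-87263738, Slc2a5 at chr4:150119283-150144169, Golm1 at chr13:59634626-59675811, Sparc at chr11:55394500-55423183 and Olfml3 at chr3:103722222-103738001. Slc2a5 is on the plus strand and the other 5 are on the minus strand. The 3′ end of Golm1 overlaps Naa35, a gene on the opposite strand, and the libraries do not keep strand, so reads from that overlap cannot be told apart. None of the other 5 overlaps an annotated gene.

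Upstream sequence is shown for the 4 members that had a long enough stretch outside annotated exons, and it lets their starts be compared. The RefSeq promoter table (build GRCm38.p6) held 5 of the 6 members, all but Tmem119, and Sparc had no stretch long enough to show. Each stretch below lies upstream of the RefSeq start and outside every exon annotated for its gene. The Fcrls stretch lies within the annotated Fcrls gene, which begins upstream of that RefSeq start. The Slc2a5, Golm1 and Olfml3 stretches lie outside their annotated genes. Capitals mark matches, on either strand, to GAGGAAG (the core of PU.1 sites) or CAGAC (a SMAD site). The Fcrls stretch is chr3:87263600-87263677, the Slc2a5 stretch chr4:150119094-150119282, the Golm1 stretch chr13:59675812-59676011 and the Olfml3 stretch chr3:103738002-103738201, each read 5′ to 3′ on the strand of its gene.
Fcrls: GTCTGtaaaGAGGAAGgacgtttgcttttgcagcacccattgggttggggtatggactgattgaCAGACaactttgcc
Slc2a5: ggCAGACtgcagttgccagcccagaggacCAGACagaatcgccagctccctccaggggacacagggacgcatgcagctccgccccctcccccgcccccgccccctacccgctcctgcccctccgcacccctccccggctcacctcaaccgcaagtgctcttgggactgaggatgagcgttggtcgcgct
Golm1: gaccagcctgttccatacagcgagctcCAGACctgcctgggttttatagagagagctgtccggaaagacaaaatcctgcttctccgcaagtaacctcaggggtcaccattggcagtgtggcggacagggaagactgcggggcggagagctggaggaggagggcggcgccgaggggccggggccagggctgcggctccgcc
Olfml3: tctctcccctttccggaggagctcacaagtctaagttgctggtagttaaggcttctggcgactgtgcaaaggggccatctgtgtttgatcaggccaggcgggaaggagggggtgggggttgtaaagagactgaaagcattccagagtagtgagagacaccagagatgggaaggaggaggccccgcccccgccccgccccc
The PU.1 core stood in the Fcrls stretch at bases -144 to -138 from the start and in no other stretch. Over the 300 bases of each RefSeq promoter, GAGGAAG was found in 1 of 5 members and in 13.6% of 32851 promoters. CAGAC was found in 4 of 5 members, all but Olfml3, and in 49.6% of promoters. TGTGGT, a RUNX motif, was found in 3 of 5 members and in 16.8% of promoters, and its match in Slc2a5 (bases -5 to 1) overlaps a CAGAC match (bases -1 to 4). The MEF2 and interferon response motifs were found in none of the 5, against 3.69% and 3.44% of promoters. These are matches of letters within the window and no measure of binding.

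Each library held 23808223 to 31414974 counts in repopulated, 18741936 to 27755121 in old and 28373152 to 34496308 in young microglia. Cord libraries held 15909868 to 33004806 in repopulated, 22802459 to 31075737 in old and 23756093 to 32172147 in young mice. CPM of single genes are TMM-scaled within a tissue unless another scale is named. CPM summed over a marker list are shares of the library's total count, without TMM scaling, and so differ in scale from the members' CPM. Log2 fold changes carry their standard error (SE). Genes were called when edgeR's quasi-likelihood test gave a Benjamini-Hochberg adjusted p under 0.05 over all genes tested. Whether the 8 libraries come from 8 animals is not in the labels, and p-values therefore reflect library-to-library spread, which may be technical. Microglial messages were abundant in the sort: 9 panel genes of microglia (Csf1r, Aif1, Itgam, C1qa, C1qb, C1qc, Ctss, Tyrobp and Fcer1g) summed to a median of 54300 CPM in repopulated, 47400 in old and 52500 in young microglia. The 9 neuronal markers summed to medians of 4.28, 6.09 and 4.68 CPM in the same groups. Markers of other cells were present as well, and in old microglia those of neutrophils summed to a median of 4970 CPM and those of oligodendrocytes to 494 CPM.

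The members are among the most abundant messages of sorted microglia. On the scale of deposited TPM, which is per length and allows genes to be compared, Olfml3 had the highest mean level of the 6 in every microglial group, at 5210 ± 362 TPM in repopulated, 4640 ± 371 TPM in old and 6520 ± 226 TPM in young cells (SD, n = 8 each). In young microglia Olfml3 ranked 17, Tmem119 18, Sparc 21 and Fcrls 25 among 20568 genes with a value, while Slc2a5 and Golm1 ranked 135 and 143. Olfml3 and Tmem119 did not differ in order there, since Olfml3 was higher in only 4 of 8 libraries. Together the 6 members made up 1.66 ± 0.115% of TPM in repopulated, 1.68 ± 0.139% in old and 2.54 ± 0.0586% in young microglia. The order changed in repopulated cells, where Sparc, and no longer Tmem119, followed Olfml3, and was above Tmem119 in 8 of 8 libraries.

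All 6 members fell in old compared with young microglia, in a comparison where 10.7% of 14382 genes were called lower and 21.7% were called in all. Their log2 changes ran from -0.78 to -0.33, with a median of -0.50 against -0.01 over all genes tested. In repopulated microglia the members went different ways. Compared with old cells, with 16.2% of genes called in all, Sparc and Olfml3 rose, where 9.05% of genes were called higher, and Slc2a5 and Golm1 fell, where 7.2% were called lower. Tmem119 and Fcrls were not called. The median over the 6 members was -0.03, against -0.04 over all genes.

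**Figure D1:**
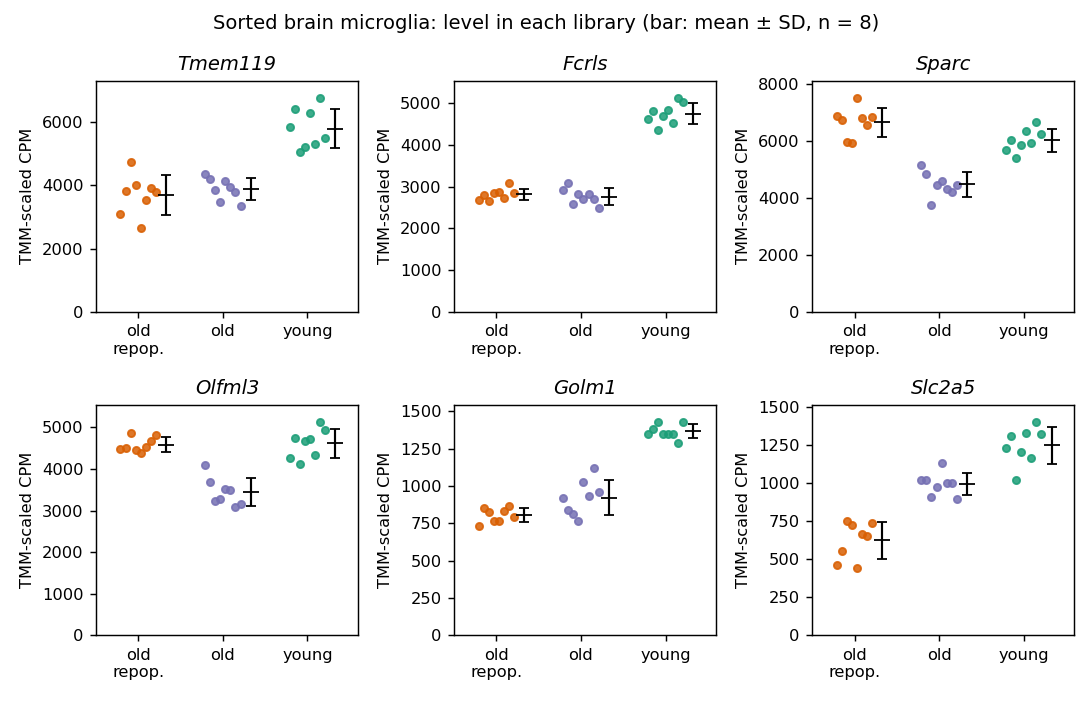
Level of each member in sorted brain microglia, in TMM-scaled CPM on a linear axis from 0, for old repopulated, old and young libraries; each point is 1 library and the bar beside it the mean ± SD of 8. Sparc and Olfml3 of repopulated cells lie above every old library, Tmem119 and Fcrls overlap the old ones, and Slc2a5 lies below them.

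Tmem119 had 2660, 3810 and 4750 CPM (lowest, median and highest) in repopulated, 3350, 3910 and 4370 CPM in old and 5050, 5670 and 6760 CPM in young microglia. Every young library was above every library from old animals of either kind. Old cells were 1.49-fold lower than young (log2 -0.58, SE 0.09, adjusted p = 6.9e-06 by edgeR). Repopulated cells overlapped old cells on both sides (log2 -0.08, SE 0.09, adjusted p = 0.63 by edgeR) and were 1.57-fold below young (log2 -0.65, SE 0.09). The spread was widest after repopulation, with a coefficient of variation of 17% in repopulated, 9.07% in old and 10.8% in young libraries.

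Fcrls showed the largest fall with age of the 6, at 2660, 2820 and 3080 CPM in repopulated, 2480, 2760 and 3090 CPM in old and 4360, 4750 and 5120 CPM in young microglia. The young range stood wholly apart, and the repopulated range lay within the old one. Old cells were 1.72-fold lower than young (log2 -0.78, SE 0.05, adjusted p = 7.1e-13 by edgeR), and so were repopulated cells by 1.69-fold (log2 -0.76, SE 0.05). Between repopulated and old cells the difference was 0.02 (SE 0.05, adjusted p = 0.81 by edgeR).

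Slc2a5 fell in old cells and was lower again after repopulation. It had 444.97, 659 and 753 CPM in repopulated, 892, 1000 and 1130 CPM in old and 1020, 1270 and 1400 CPM in young microglia. Old and young libraries overlapped at their edges, and all 8 repopulated libraries were below every other library. The fall was 1.26-fold in old against young (log2 -0.33, SE 0.09, adjusted p = 0.0095 by edgeR), 1.59-fold in repopulated against old (log2 -0.67, SE 0.09, adjusted p = 3.6e-06) and 2.0-fold in repopulated against young (log2 -1.0, SE 0.09, adjusted p = 4e-10).

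Golm1 had 735, 811 and 865 CPM in repopulated, 763, 929 and 1120 CPM in old and 1290, 1350 and 1430 CPM in young microglia. Young libraries stood apart from both groups of old animals, which overlapped each other. Golm1 was 1.48-fold lower in old than in young (log2 -0.57, SE 0.06, adjusted p = 4.6e-08 by edgeR) and 1.70-fold lower in repopulated than in young (log2 -0.76, SE 0.06). The step between repopulated and old cells was small (log2 -0.20, SE 0.06, adjusted p = 0.032 by edgeR). This call was lost when any of repopulated replicates 1, 4, 5, 6 or 8 or old replicates 5, 6, 7 or 8 was left out, with log2 changes from -0.19 to -0.14.

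The genes for both secreted proteins showed another order. Sparc had 5940, 6760 and 7500 CPM in repopulated, 3740, 4450 and 5160 CPM in old and 5380, 5980 and 6650 CPM in young microglia. Old libraries lay below all others, and repopulated libraries overlapped the young ones. Sparc was 1.35-fold lower in old than in young (log2 -0.43, SE 0.06, adjusted p = 3.4e-06 by edgeR) and 1.49-fold higher in repopulated than in old (log2 0.57, SE 0.06, adjusted p = 6.2e-08).

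Olfml3 had 4380, 4510 and 4870 CPM in repopulated, 3090, 3380 and 4090 CPM in old and 4110, 4700 and 5130 CPM in young microglia. The repopulated range lay inside the young range and above the old one. Olfml3 was 1.34-fold lower in old than in young (log2 -0.42, SE 0.06, adjusted p = 1.8e-06 by edgeR) and 1.33-fold higher in repopulated than in old (log2 0.41, SE 0.06, adjusted p = 5.1e-06).

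Against young cells, repopulated microglia were lower in 4 of 6 members, where 16.5% of genes were called lower and 32.7% were called in all. The exceptions were Sparc (log2 0.14, SE 0.06, adjusted p = 0.073 by edgeR) and Olfml3 (log2 -0.01, SE 0.06, adjusted p = 0.94). Both depended on the scaling. With DESeq2's size factors Sparc passed the threshold in edgeR (0.18, adjusted p = 0.028). On log2(TPM + 1) with limma, Sparc was -0.18 (adjusted p = 0.0089) and Olfml3 -0.33 (adjusted p = 7.1e-05), on a scale with an all-gene median of -0.28 and 16.8% of called genes higher. In deposited TPM every repopulated library was below every young one for Sparc (4620 to 5350 against 5490 to 5680 TPM). The same held for Olfml3 (4630 to 5760 against 6230 to 6770 TPM). Likewise, against old cells, scaling by total counts moved the median of all genes to -0.21 and gave Fcrls at -0.14 (adjusted p = 0.021 by edgeR) and Tmem119 at -0.24 (adjusted p = 0.045), while Sparc and Olfml3 kept their rise and Slc2a5 its fall under every setting run.

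**Figure D2:**
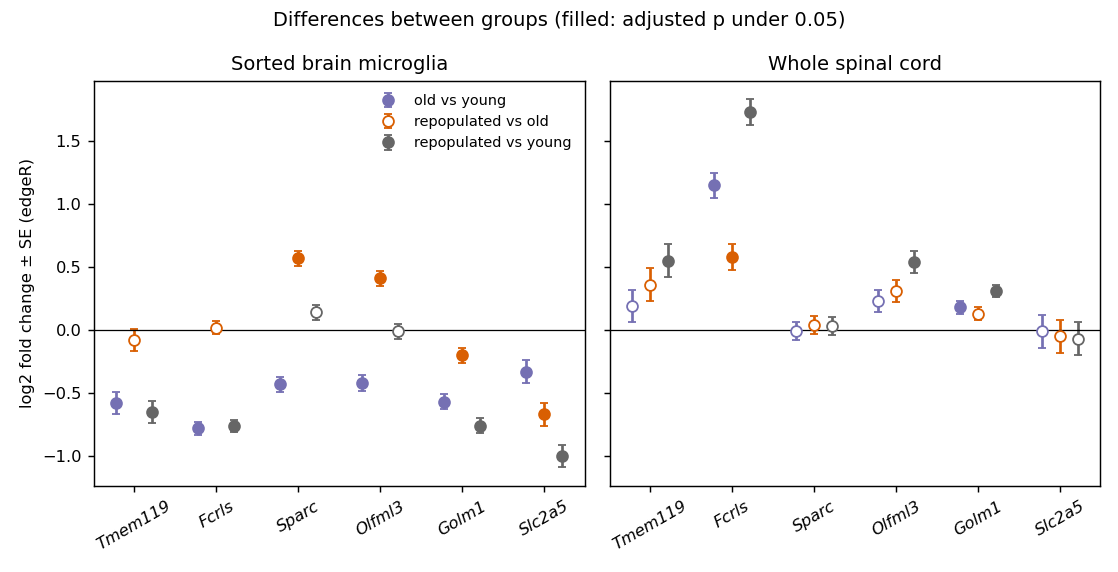
Log2 fold change ± SE of each member by edgeR in sorted microglia and in cord, for old against young, repopulated against old and repopulated against young; filled points had an adjusted p under 0.05. In microglia all 6 members lie below 0 for old against young, and in cord no member was called lower.

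Other cells in the sort moved with the groups. The 9 neutrophil markers summed to 778 to 3660 CPM in repopulated, 2230 to 9680 CPM in old and 226 to 1090 CPM in young microglia, and 8 of 9 were called higher in old than in young cells. The 8 monocyte markers summed to medians of 259 CPM in repopulated, 530 CPM in old and 156 CPM in young cells, and the 9 markers of border-associated macrophages to 868, 1260 and 1280 CPM in the same order. No marker of these 3 lists was at 0 in all libraries of a group. Their part in the members' differences was not tested.

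Of 32 other tested genes known from homeostatic microglia, 22 fell, 1 rose and 9 were not called in old compared with young cells (median log2 -0.38, against -0.01 over all genes). The smallest adjusted p were those of Siglech, a sialic acid-binding lectin (log2 -0.62, SE 0.06), the membrane-shaping gene Bin1 (-0.53, SE 0.05), Csf1r (-0.53, SE 0.06) and the secreted ribonuclease gene Rnase4 (-0.39, SE 0.05). Compared with old cells, repopulated cells had 12 of the 32 higher and 4 lower, where 9.05% of genes were called higher and 7.2% lower. Of all genes called there, 55.7% were higher under TMM and 17.6% under total-count scaling. Ctss, the lysosomal protease cathepsin S (log2 0.54, SE 0.07), the integrin gene Itgb5 (0.43, SE 0.06) and Ctsd, cathepsin D (0.43, SE 0.07), rose, and P2ry13, a purinergic receptor (-0.64, SE 0.09), fell. Compared with young cells, 6 were higher and 20 lower in repopulated cells, where 16.5% of genes were called lower and 32.7% in all. Cx3cr1, the fractalkine receptor (log2 -0.88, SE 0.07), P2ry13 (-1.11, SE 0.09) and the checkpoint gene Vsir (-0.74, SE 0.07) fell.

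The genes whose levels ran most alike were sought by Pearson's r of log2 CPM over the 24 microglia libraries, as a description, since the libraries share 3 group differences and a scaling. Tmem119 was nearest to Selplg (r = 0.977), which encodes a ligand of selectins, Tpst2 (0.955), a tyrosylprotein sulfotransferase, and Cxxc5 (0.952). Slc2a5 was nearest to P2ry13 (r = 0.977), Slc44a2 (0.963) and Tmem204 (0.961). Sparc was nearest to Lgmn, the protease legumain (r = 0.908), Olfml3 (0.896) and Adam15 (0.881), and Olfml3 in turn to Sparc, Lgmn (0.878) and Parvg (0.850). Fcrls was nearest to Rps6ka1 (0.951), Elmo1 (0.938) and Ctc1 (0.936), and Golm1 to Eef2k (0.958), Sirpa (0.949) and Abl1 (0.949).

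Most hexose transporters other than Slc2a5 were not lower in old cells. Of 11 facilitative transporter genes other than Slc2a5, 8 were tested in microglia, and 4 rose and 1 fell in old compared with young cells (median log2 0.82, against -0.01 over all genes). Slc2a6, which encodes GLUT6 of lysosomal membranes, had 46.1 ± 20.7 TPM in repopulated, 33.2 ± 5.95 TPM in old and 6.67 ± 2.24 TPM in young cells (SD, n = 8 each). It rose 5.19-fold in old against young (log2 2.38, SE 0.23, adjusted p = 3e-09 by edgeR) and again in repopulated against old (log2 0.75, SE 0.22, adjusted p = 0.017). Slc2a3, the high-affinity glucose transporter GLUT3, rose in old cells (log2 1.67, SE 0.16) and fell after repopulation against old (log2 -0.97, SE 0.16). Slc2a1, the glucose transporter GLUT1, also rose (log2 0.58, SE 0.12) and fell (log2 -0.40, SE 0.12). Slc2a3 had 6.7 ± 1.54 TPM in repopulated, 15.5 ± 3.6 TPM in old and 5.18 ± 0.686 TPM in young cells. Neutrophil markers in the sort summed to medians of 1290, 4970 and 545 CPM in the same groups. The part of other cells in the sort in the changes of these transporter genes was not tested. Slc2a8 fell in old cells (log2 -0.26, SE 0.07) and rose after repopulation (log2 0.25, SE 0.07). In deposited TPM that rise was absent, at 65.7 ± 8.05 TPM in repopulated and 65.8 ± 6.59 TPM in old cells. Slc2a5 stayed the most abundant of the family per length, at 378 ± 86.3 TPM in repopulated, 715 ± 78.1 TPM in old and 935 ± 48.5 TPM in young cells, against 85.6 ± 23.7, 135 ± 27.4 and 94.4 ± 10.5 TPM for Slc2a1.

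**Figure D3:**
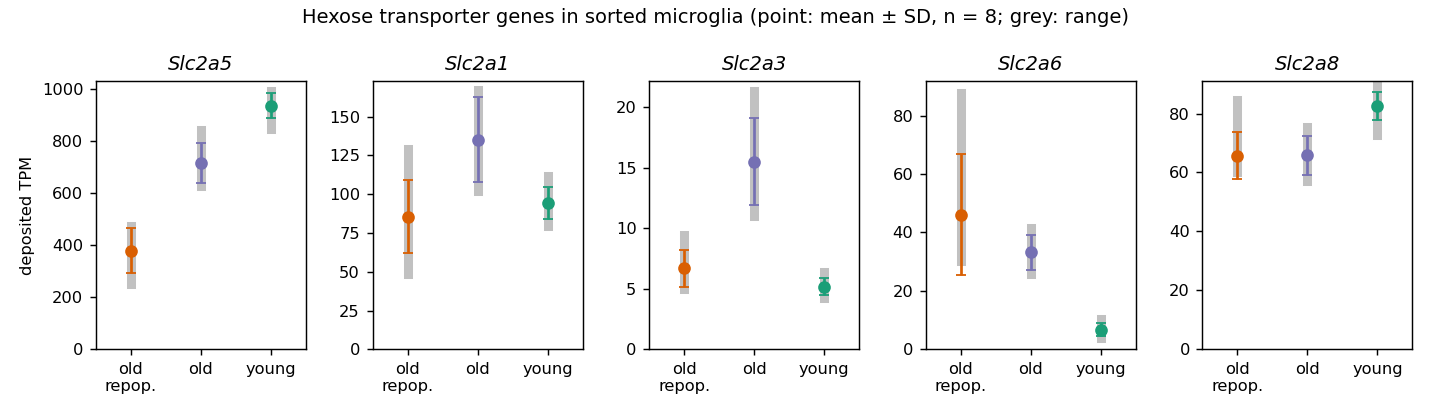
Deposited TPM of Slc2a5 and of the 4 other hexose transporter genes with the smallest adjusted p for old against young microglia, in old repopulated, old and young cells; points are means ± SD of 8 libraries, grey bars run from the lowest to the highest library, and each axis starts at 0. Slc2a5 is lowest in repopulated cells, at 378 TPM, where Slc2a6 is highest, at 46.1 TPM.

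Fructose and hexose enzymes changed little with age in microglia: of 7 tested genes, Hk2, a hexokinase, fell in old compared with young cells (log2 -0.30, SE 0.05) and the other 6 were not called. Compared with old cells, repopulated cells had 3 higher, Hk2 (log2 0.37, SE 0.05), the sorbitol dehydrogenase gene Sord (0.35, SE 0.08) and the triose kinase gene Tkfc (0.59, SE 0.15), and 1 lower, Hk1 (-0.27, SE 0.08). Mean deposited TPM in repopulated and old cells was 131 and 121 for Hk2, 54.9 and 51.5 for Sord, 9.42 and 7.41 for Tkfc, and 21.6 and 30.9 for Hk1. Among 6 tested relatives of Sparc, none was called in old against young cells. In repopulated against old cells 1 rose and 2 fell (median log2 -1.09): Sparcl1 (-1.02, SE 0.30) and Spock2 (-1.33, SE 0.39) fell, and Spock1, a secreted proteoglycan gene, rose (1.93, SE 0.31). Spock1 stayed at 2.33 ± 0.867 TPM in repopulated, 0.748 ± 0.453 TPM in old and 0.438 ± 0.0925 TPM in young cells. Sparcl1 had 32.9 ± 29.2 TPM in repopulated and 78.3 ± 28.9 TPM in old cells, where astrocyte markers summed to medians of 124 and 312 CPM. Among 6 tested relatives of Olfml3, Olfm4 (log2 2.08, SE 0.19) and Olfm1 (1.5, SE 0.32) rose in old against young cells. Olfm4 had 18.2 TPM in repopulated, 26.8 TPM in old and 6.64 TPM in young cells. Neutrophil markers summed to medians of 1290, 4970 and 545 CPM in the same groups. The part of other cells in the sort in these relatives' changes was not tested. Olfml2b, like Olfml3 a secreted olfactomedin-domain gene, rose in repopulated against old cells (log2 0.59, SE 0.09). The family member Fcrl1 fell beside Fcrls in old against young cells (log2 -0.41, SE 0.12). In repopulated against old cells, where Fcrls was not called, Fcrl1 fell further (log2 -0.73, SE 0.12) and Fcrla fell as well (log2 -1.92, SE 0.63). Fcrla was scarce, at 1.0 ± 0.781 TPM in repopulated and 4.51 ± 3.02 TPM in old cells. Of 11 tested Golgi membrane genes other than Golm1, 1 fell in old against young cells, Gorasp2, a stacking protein gene (log2 -0.27, SE 0.07), and the median was 0.00. In repopulated against old cells Golga3 (log2 0.44, SE 0.12) and Golga4 (0.48, SE 0.12) rose and Gorasp2 fell again (-0.23, SE 0.07).

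Of 14 tested genes of TGF-beta signalling, 5 fell and none rose in old compared with young microglia (median log2 -0.10, against -0.01 over all genes). The ligand gene Tgfb1 was at -0.36 (SE 0.06), the signal transducer gene Smad3 at -0.46 (SE 0.09), the integrin gene Itgav at -0.35 (SE 0.10) and the receptor gene Tgfbr1 at -0.36 (SE 0.11). In repopulated against old cells only Nrros, which anchors latent TGF-beta on microglia, was called (log2 -0.35, SE 0.07). Against young cells 6 of the 14 fell in repopulated cells, where 16.5% of genes were called lower.

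In whole cord the picture by age was different: Fcrls and Golm1 were higher in old than in young mice, where 4.88% of 18271 genes were called higher and 6.15% in all, and none of the 6 was called lower, where 1.26% were. The median of the 6 members was 0.19, against -0.01 over all genes. Between repopulated and old cord only Fcrls was called, higher, in a comparison with 0.148% of genes called. Between repopulated and young cord 4 of 6 members were higher, where 7.28% of genes were called higher and 10.1% in all. In intact tissue fewer cells of a type and less RNA per cell cannot be told apart.

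Fcrls had 27.2, 29.7 and 46.1 CPM in repopulated, 19.6, 22.5 and 24.7 CPM in old and 9.07, 9.94 and 11.3 CPM in young cord. The 3 groups did not overlap on this scale. It rose 2.21-fold in old against young cord (log2 1.15, SE 0.10, adjusted p = 7.4e-09 by edgeR), 1.5-fold in repopulated against old (log2 0.58, SE 0.10, adjusted p = 0.0043) and 3.31-fold in repopulated against young (log2 1.73, SE 0.10, adjusted p = 4.7e-12). Repopulated replicate 6 was the highest of its group for every member but Golm1 in CPM, and in deposited TPM it was the lowest for Fcrls, Sparc, Olfml3 and Golm1. Its 29.4 TPM of Fcrls lay within the old range, which reached 30.5 TPM, so repopulated and old cord overlapped in TPM. Without it Fcrls was at 0.50 in repopulated against old cord (adjusted p = 0.0043 by edgeR). On log2(TPM + 1) with limma the same difference was 0.42 and missed the threshold (adjusted p = 0.069).

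Tmem119 had 11.2, 15.6 and 26.4 CPM in repopulated, 11.4, 13 and 15 CPM in old and 9.51, 11 and 13.7 CPM in young cord. The 3 groups overlapped. Only the contrast of repopulated with young was called (log2 0.55, SE 0.13, adjusted p = 0.0047 by edgeR), and it was 0.44 without repopulated replicate 6 (adjusted p = 0.0039).

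Olfml3 had 40.6, 45.8 and 58.0 CPM in repopulated, 36.5, 39.0 and 42.9 CPM in old and 24.5, 34.8 and 38.7 CPM in young cord. In CPM repopulated libraries were all above young ones, and old libraries overlapped both. In TPM repopulated replicate 6 (49.9 TPM) lay inside the young range, which reached 63.2 TPM. Olfml3 was higher in repopulated than in young cord (log2 0.54, SE 0.09, adjusted p = 0.00013 by edgeR), and the differences of old from young (log2 0.23, SE 0.09, adjusted p = 0.17) and of repopulated from old (log2 0.31, SE 0.09, adjusted p = 0.35) missed the threshold.

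Golm1 had 19.5, 21.1 and 23.7 CPM in repopulated, 18.4, 19.4 and 20.3 CPM in old and 15.1, 17.0 and 19.4 CPM in young cord. It was higher in repopulated than in young cord without overlap in CPM (log2 0.31, SE 0.05, adjusted p = 9.1e-05 by edgeR), and in TPM repopulated replicate 6 (9.06 TPM) was below every young library. The difference of old from young cord (log2 0.18, SE 0.05, adjusted p = 0.025) missed the threshold without old replicate 1 (0.17), young replicate 2 (0.17) or young replicate 3 (0.16).

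Sparc and Slc2a5 were at nearly the same level in all 3 cord groups. Sparc had 1620, 1860 and 2370 CPM in repopulated, 1650, 1880 and 2050 CPM in old and 1740, 1840 and 2100 CPM in young cord. Its log2 differences were -0.01 (SE 0.07) in old against young and 0.03 (SE 0.07) in repopulated against young. Slc2a5 had few counts, 37 to 83 counts in repopulated, 64 to 82 in old and 38 to 88 in young libraries, and its difference of old from young cord was -0.01 (SE 0.13).

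**Figure D4:**
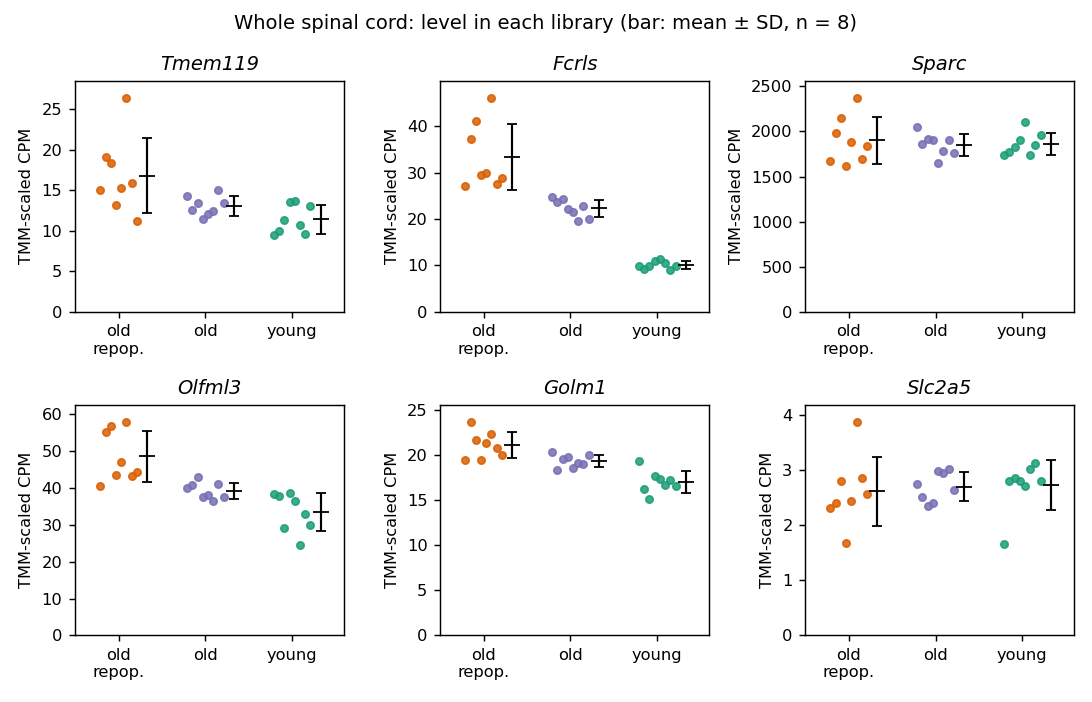
Level of each member in whole spinal cord, in TMM-scaled CPM on a linear axis from 0, for old repopulated, old and young libraries; each point is 1 library and the bar beside it the mean ± SD of 8. In CPM Fcrls separates the 3 groups without overlap, from 9.07 CPM in the lowest young library to 46.1 CPM in repopulated replicate 6, while Sparc and Slc2a5 overlap throughout.

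The 9 panel genes of microglia were higher in old than in young cord, and other microglial genes only in part. They summed to 609 to 1210 CPM in repopulated, 504 to 703 CPM in old and 189 to 331 CPM in young cord, and all 9 rose in old against young (median log2 1.56, from 0.49 for Csf1r to 1.83 for Tyrobp). Of the 32 homeostatic genes other than the members, which include 5 of the panel (Csf1r, C1qa, C1qb, C1qc and Ctss), 21 rose, none fell and 11 were not called in old against young cord (median log2 0.47, against -0.01 over all genes). The smallest adjusted p were those of the complement genes C1qc (log2 1.67, SE 0.14), C1qa (1.64, SE 0.19) and C1qb (1.56, SE 0.18), and Ctss (1.68, SE 0.15). Over the 24 cord libraries Fcrls was most like C1qc (r = 0.984), Laptm5 (0.982) and Tyrobp (0.981). Olfml3 was nearest to Ifi30 (0.943) and Golm1 to Rnase4 (0.906). The relative Fcrl1 rose as Fcrls did in old against young cord (log2 2.66, SE 0.35), at 0.961 ± 0.33 TPM in old and 0.147 ± 0.116 TPM in young cord.

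To set the members against the microglial signal of the same library, each member's log2 CPM was taken relative to the mean log2 CPM of the 9 panel genes. The panel mean itself differed by 1.39 in old against young cord, 0.39 in repopulated against old cord and 1.78 in repopulated against young cord. Relative to it, Tmem119 was at -1.82 ± 0.14 in old and -0.63 ± 0.13 in young cord (SD, n = 8 each), a difference of -1.19 (SE 0.07). Sparc, Slc2a5, Golm1 and Olfml3 differed by -1.40, -1.39, -1.21 and -1.15 in the same contrast. For these 5 members no old library reached the young range (exact 2-sided permutation p = 0.00016 for each, the smallest that 8 against 8 libraries can give). A gene that is level in cord falls in this ratio by the panel's rise, and Sparc and Slc2a5 were each at log2 -0.01 in CPM. These p-values therefore do not separate a change in a member from the panel's rise. Fcrls differed by only -0.25 (SE 0.06, exact permutation p = 0.0023), with overlap, and by -0.08 (SE 0.07, exact permutation p = 0.30) in repopulated against young cord. In both contrasts with young cord Fcrls had the smallest such difference of the 6, and in repopulated against old cord Tmem119 (-0.07) and Olfml3 (-0.09) had smaller ones than Fcrls (0.17). The panel genes moved unequally among themselves, so these ratios show unequal change and do not count cells.

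In sorted microglia the panel mean differed by -0.01 in old against young, and the members' ratios fell by nearly as much as their CPM did. The panel mean was 0.37 higher in repopulated than in old cells. Relative to it Tmem119 (-0.46, SE 0.12, exact permutation p = 0.0020) and Fcrls (-0.34, SE 0.06, exact permutation p = 0.00016) were lower in repopulated than in old cells, as was Golm1 (-0.56, SE 0.11, exact permutation p = 0.00016), and Slc2a5 was lower by the most of the 6 (log2 -1.07, SE 0.14). Sparc stayed higher (0.20, SE 0.05, exact permutation p = 0.00062), and Olfml3 did not differ beyond its spread (0.05, SE 0.05, exact permutation p = 0.38). In repopulated against young cells the panel mean was 0.36 higher. Relative to it all 6 members were lower, by the least for Sparc (-0.22, SE 0.04, exact permutation p = 0.00031) and Olfml3 (-0.37, SE 0.04, exact permutation p = 0.00016). In both contrasts of repopulated cells the ratio also carries the panel's rise. In CPM Tmem119 (log2 -0.08) and Fcrls (log2 0.02) were not called between repopulated and old cells. Olfml3 (log2 -0.01) was not called between repopulated and young cells. As in cord, the p-values of these 2 contrasts do not separate a change in a member from the panel's rise. In all 36 such differences were tested, for 6 members in 6 contrasts.

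**Figure D5:**
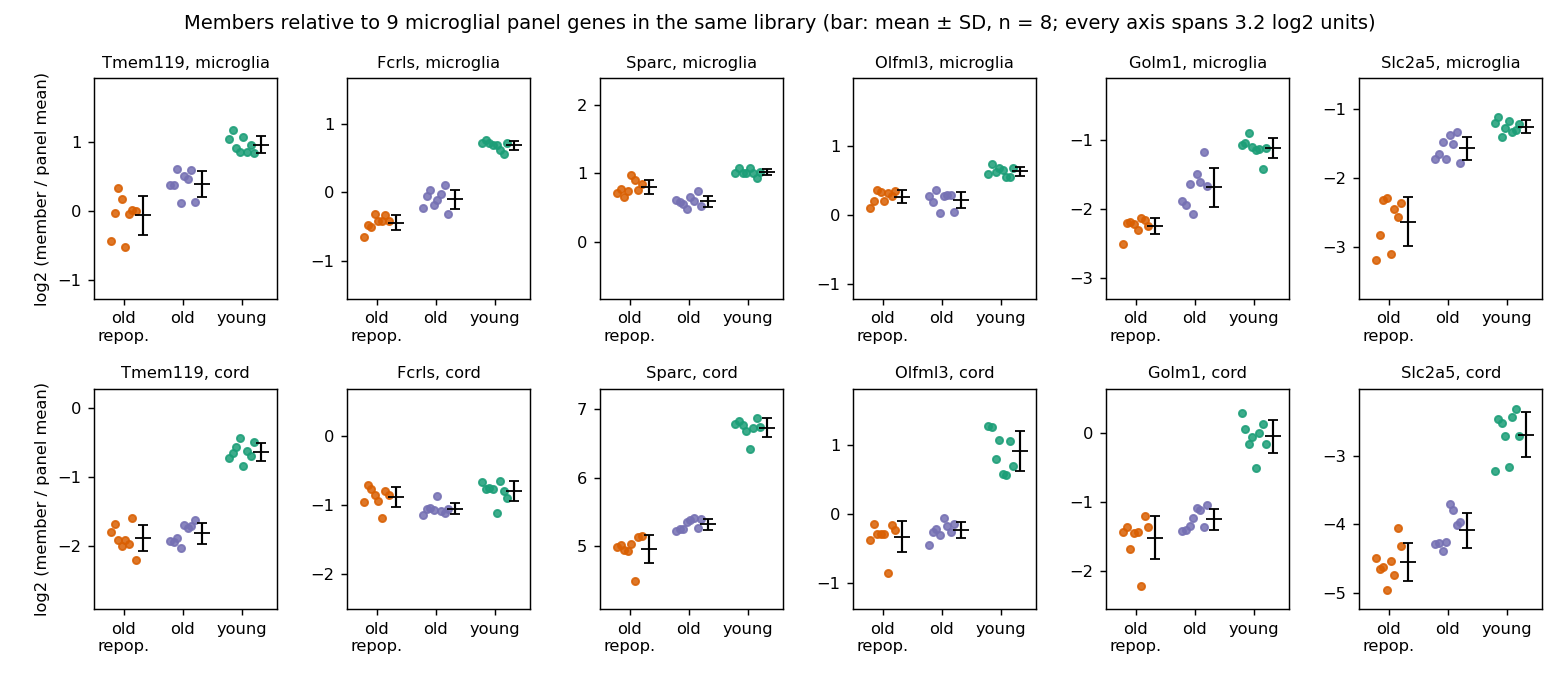
Log2 ratio of each member to the mean of 9 microglial panel genes in the same library, for sorted microglia (top) and cord (bottom), in old repopulated, old and young libraries; bars are mean ± SD of 8 and every axis spans the same width. In cord 5 members lie lower in both groups of old animals than in young ones, and Fcrls overlaps across the 3 groups.

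The change with age differed between the tissues for all 6 members. In 1 fit of all 48 libraries, the difference of the log2 changes, microglia minus cord, was -2.09 (SE 0.11) for Fcrls, -0.93 (SE 0.16) for Tmem119, -0.92 (SE 0.08) for Golm1, -0.81 (SE 0.11) for Olfml3, -0.59 (SE 0.09) for Sparc and -0.47 (SE 0.17) for Slc2a5. All 6 were called lower, where 15% of 19110 genes were called lower and 20.5% in all, and the median of all genes was -0.15. Whether cord and microglia libraries come from the same mice is not in the labels, and the fit treats them as separate. The lean to lower calls rested on the scaling: 26.6% of called genes were higher under TMM, 49.3% with the size factors of DESeq2 and 51.0% with total-count scaling, and under both alternatives the all-gene median was -0.01. The members other than Slc2a5 stayed called lower under both. Slc2a5 missed the threshold with the size factors of DESeq2 (-0.31, adjusted p = 0.22 by edgeR) and with total-count scaling (-0.30). For repopulated against old, Sparc differed the other way (0.51, SE 0.09, adjusted p = 0.00012 by edgeR), where 3.49% of genes were called higher. Fcrls (-0.58), Slc2a5 (-0.64) and Golm1 (-0.35) were called lower there, where 7.54% were and 11% were called in all, and Tmem119 and Olfml3 were not called. For repopulated against young, 5 members were called lower, all but Sparc, where 23.5% were called lower and 29.6% in all. There 20.6% of called genes were higher under TMM, against 40.6% with the size factors of DESeq2, and for repopulated against old 31.6%, against 14.8% with total-count scaling.

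All 6 members were higher in sorted microglia than in cord in every group, where 32.1% of genes in repopulated, 33.2% in old and 35.4% in young mice were called higher, but by very different factors. In young mice the factor was 920 for Tmem119, 854 for Fcrls, 829 for Slc2a5, 250 for Olfml3 and 146 for Golm1, and 5.87 for Sparc. The factors and the CPM percentages here came from TMM scaling over both tissues together, and not from the within-tissue CPM given above. The factors depend on the scaling: young cord held 0.109% of the microglial Tmem119 in CPM and 0.228% in deposited TPM. Cord Sparc reached 18% of the microglial CPM in repopulated, 25.6% in old and 17% in young mice, and 38.8%, 51.4% and 35.9% of the microglial TPM in the same order. The 9 panel genes had medians of 1.02%, 0.886% and 0.371% in CPM in that order. Sparc is known to be made by astrocytes and endothelial cells as well. The 10 astrocyte markers summed to medians of 4200 CPM in repopulated, 4280 CPM in old and 3880 CPM in young cord, against 124, 312 and 335 CPM in the same groups of sorted microglia, and the part of these cells in cord Sparc was not tested. Over the cord libraries Sparc was most like Selenop (r = 0.945), Pla2g16 (0.902) and Fscn1 (0.894).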

How the data were processed

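Polyadenylated RNA of 48 libraries (24 sorted microglia, 24 spinal cord) was sequenced from TruSeq v2 libraries, a kit that does not keep strand, per the labels' protocols. STAR 2.5.2b and GRCm38.p5 are listed, with no role, per the submitters' processing notes. Counting tool and annotation: not given in the sources used here. Whole-number counts per gene were deposited by the authors and used as they stand. The deposited TPM values, which equal counts per length rescaled per library within a deviation of 0.0005, gave levels between genes and an alternative. The FPKM values were not used.

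Counts were tested with edgeR 4.0.16 (R 4.3.3), TMM scaling and filterByExpr (minimum count 10, total 15), over the 24 libraries of a tissue (14382 genes in microglia, 18271 in cord) or all 48 (19110 genes), with Benjamini-Hochberg adjustment. Log2 CPM used a prior count of 1. The steps were tested on simulated data. Single ratios were compared by exact permutation (scipy 1.17.1). Depth limits Slc2a5 in cord most. Alternatives were DESeq2 1.42.0 size factors and Wald test, total-count scaling, no or stricter filters (1 CPM in 8 libraries and a mean of 2), limma 3.58.1 on log2(TPM + 1) and log2(TPM + 0.1), a replicate block, fewer groups and libraries left out. The 168 pairs of libraries within a group were all unlike beyond counting error, with chi-square per gene between 3.4 and 196.

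The 6 members and all lists were chosen with earlier results of these data known. Of each list at most 4 genes with the smallest adjusted p in a comparison were named, lists of 5 or fewer in full, and 3 genes most alike per member and tissue with a mean of at least 5 CPM; the ends of the panel's range and genes called alone were named after their values were seen. Gpr56 and Lrrc33 matched no symbol, and their current names Adgrg1 and Nrros are in the lists. Of the microglial panel and the homeostatic list 1 gene is not reported here, and it was left out of their sums, means and counts. Gene positions are from the GENCODE annotation of GRCm38.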

Additional observations from a re-analysis of the deposited data

Results flagged for a closer look

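In young cord, replicate 1 had 1.66 CPM of Slc2a5, far below the other 7 libraries of its group. Of 36 groups checked for such a library this was the only one, and chance alone flags about 1 in 20.

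The contrasts differed between the tissues for 15 of 18 combinations of member and contrast, by an interaction test in edgeR with an adjusted p under 0.05. Values are log2 changes in microglia minus those in cord. For old against young they were -0.93 for Tmem119, -2.09 for Fcrls, -0.59 for Sparc, -0.81 for Olfml3, -0.92 for Golm1 and -0.47 for Slc2a5. For repopulated against old they were -0.58 for Fcrls, 0.51 for Sparc, -0.35 for Golm1 and -0.64 for Slc2a5. For repopulated against young they were -1.39 for Tmem119, -2.68 for Fcrls, -0.73 for Olfml3, -1.27 for Golm1 and -1.11 for Slc2a5. Over all genes the median of these differences was -0.15, -0.10 and -0.27 in the 3 contrasts, and 20.5%, 11% and 29.6% of 19110 genes were called. The difference of Slc2a5 for old against young missed the threshold with DESeq2 size factors (-0.31) and with total-count scaling (-0.30), each with an adjusted p of 0.22 by edgeR.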

How the results depend on the processing

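The falls of all 6 members in old against young microglia kept direction and call under every setting run. Where a call moved, the cause was not tested. In repopulated against old microglia, 4 members in place of 2 were lower under total-count scaling (Fcrls -0.14, Tmem119 -0.24) and on log2(TPM + 1) or log2(TPM + 0.1) (Fcrls -0.23, Tmem119 -0.34), and 1 without a low-count filter, with only the groups compared or without old replicates 2 and 7. Without 1 library in turn 1 to 2 were lower, since Golm1 lost its call. Total-count scaling called 17.6% of changed genes higher there, against 55.7% under TMM, and log2(TPM + 1) 10.4%. In old against young microglia the share was 50.7% under TMM, 60.9% by the size factors of DESeq2 and 40.7% on log2(TPM + 1), and in repopulated against young 49.4%, 55.4% and 16.8%. In repopulated against young cord it was 72.4% under TMM and 84.6% under total-count scaling. Between microglia and cord of young mice it was 42.0% under TMM, 32.3% with DESeq2 size factors and 25.9% under total-count scaling. In repopulated against young microglia, Sparc was reversed to -0.18 on both TPM scales, with all-gene medians of -0.28 and -0.41, and 1 member was higher (Sparc, 0.17 to 0.19) with DESeq2 size factors or Wald test, the stricter filter, only the groups compared, or without repopulated replicate 3 or 4 or young replicate 7, for a range of 0 to 1 without 1 library. In old against young cord 1 member was higher without a filter and on both TPM scales, and 1 to 2 without 1 library. In repopulated against old cord no member was higher on either TPM scale. For repopulated against young cord Golm1 was at 0.20 to 0.21 on the TPM scales and lost its call.

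Counts of genes called moved by over 1.5 times on the TPM scales, to 4779 and 4643 for repopulated against old microglia, 7378 and 7478 for repopulated against young microglia, 13 and 12 for repopulated against old cord and 1030 and 1003 for repopulated against young cord. With only the groups compared they were 1886 for old against young cord and 1219 for repopulated against young cord, and DESeq2's Wald test called 66 genes in repopulated against old cord, against 27 by edgeR. The edgeR count ran from 16 (without old replicate 2) to 57 (without repopulated replicate 7). For the difference between tissues, total-count scaling called 2606 genes for old against young and 3307 for repopulated against old. The 36 panel ratios kept 32 differences past the threshold with a panel of Itgam, Aif1 and Tyrobp and with a prior count of 0.1.

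Replicate numbers did not pair the groups: over 48 same-numbered pairs r ran from -0.49 to 0.43, 8 were over 0.1 and 4 libraries correlated best with their own number. With the replicate block, 1 member was lower in repopulated against old microglia and 1 higher in old against young cord, Golm1 losing its call in both, and the difference between tissues in repopulated against old had 1388 genes.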
